A study of Mus musculus with 10 samples.

Results

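Lungs of mice given lipopolysaccharide (LPS) together with thymic stromal lymphopoietin (TSLP) were set against lungs of mice given LPS alone, over all genes of the deposited count table. The comparison held 7 of the 10 RNA-seq libraries of the series, with 4 libraries labelled LPS+TSLP and 3 labelled LPS. The remaining 3 libraries, labelled Vehicle, received neither agent by their labels. They entered the model only for its estimate of spread, and their levels are given for orientation. All mice had the genotype WT, each library was made from total RNA of whole lung, and the labels give each group a single treatment term. The strain, sex, age, doses, routes, times and the order in which LPS and TSLP were given are not given in the sources used here. The labels do not say whether replicates came from separate animals, so p-values measure only the spread between these samples, which may be technical. Sex-linked transcripts set LPS replicate 1 apart from its group, as given below.

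TSLP is a cytokine made mainly by epithelial cells of the lung, gut and skin. It binds a receptor built from the TSLP-specific chain, encoded by Crlf2, and the interleukin-7 receptor alpha chain, encoded by Il7r, and it activates JAK kinases and the transcription factor STAT5. It is best known in the lung for driving dendritic cells, mast cells and innate lymphoid cells towards type 2, or allergic, responses. LPS is an outer membrane component of Gram-negative bacteria. It is sensed by Cd14 and Tlr4, which activate NF-kB and interferon regulatory factors, and instilled or injected LPS is a standard model of acute lung injury in which neutrophils enter the lung.

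The 7 libraries held between 16175172 and 18062922 counts. Lung markers were present in all of them: Sftpc, the surfactant protein C gene of alveolar type 2 cells, had 1282 to 13410 CPM (counts scaled to library size), and Scgb1a1, the club cell secretory protein gene, had 8565 to 26340 CPM. A pair of libraries stood apart. LPS+TSLP replicate 1 lay at −105 on the first principal component of log2 CPM, where the other 6 libraries lay between −25.2 and 40.4, and mitochondrial genes took 13.1% of its counts. LPS replicate 1 lay at −75.7 on the second component, and it was the only library with Xist, the X-inactivation transcript of female cells, at 190 CPM, and with the Y-linked gene Ddx3y at 0 counts. In the other 6 libraries Ddx3y had 57.7 to 96.1 CPM and Xist at most 0.455 CPM. LPS replicate 1 thus had the pattern of a female and the other 6 that of males. The sexes were therefore mixed in LPS but not in LPS+TSLP, and the part of sex in the results was not tested. The mitochondrial share was 1.20%, 2.58% and 2.29% in the LPS libraries and 13.1%, 6.5%, 5.35% and 2% in LPS+TSLP replicates 1 to 4. That difference had an exact two-sided permutation p of 0.114 (adjusted p = 0.64 over 8 library measures), where 0.0286 is the smallest p that 3 against 4 libraries allow. LPS+TSLP replicate 4 lay within the LPS range and the other 3 above it. Counts of list members are therefore mostly also given without each of these, and log2 fold changes of single genes mostly also without LPS+TSLP replicate 1. A log2 fold change "without replicate 1" below leaves out that LPS+TSLP library. The part of the mitochondrial share in the results was not tested. The Vehicle libraries also differed from these 7 in other measures. Their Ddx3y was 6.15 to 11.85 CPM. The slope of log2 level on GC content, per 10 points, was 0.24 to 0.50 in Vehicle and −0.32 to 0.02 in the 7 libraries. Why Vehicle differed was not tested, so a level in or near the Vehicle range is not read as a return to baseline.

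**Figure D1:**
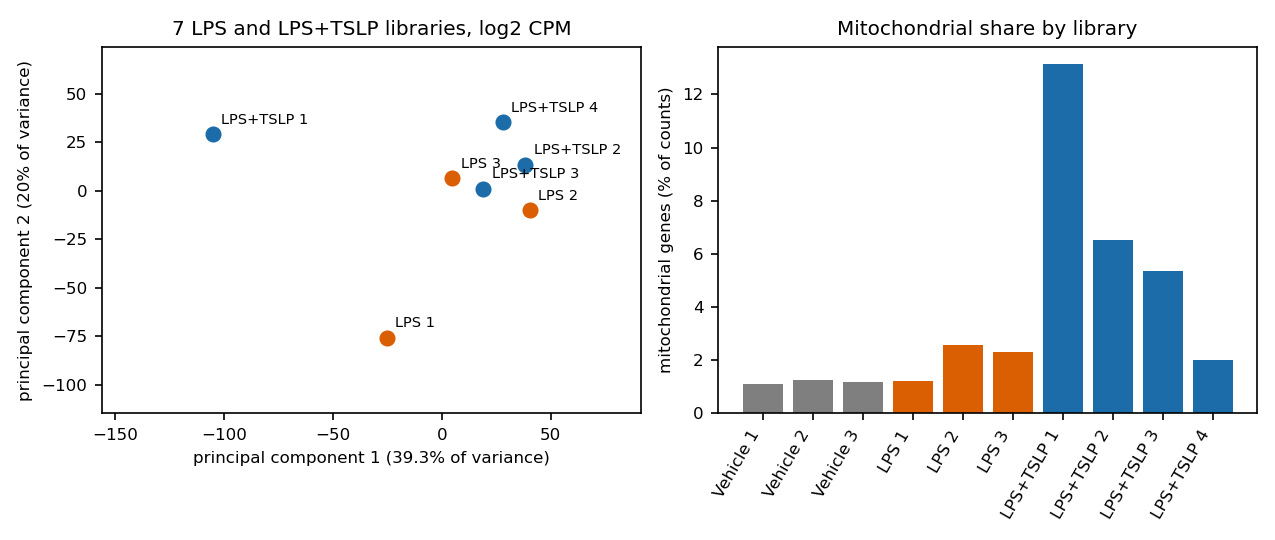
Left, the 7 LPS and LPS+TSLP libraries on the first 2 principal components of log2 CPM. Right, mitochondrial genes as a percentage of all counts in each of the 10 libraries, with 1 bar per library. LPS+TSLP replicate 1 stood alone on the left of the first component and had the tallest bar at 13.1%.

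The table held 54532 genes, of which 17139 were tested, and 0 had an adjusted p under 0.05 in either direction (0% of tested genes). The test was edgeR's quasi-likelihood test with Benjamini-Hochberg adjustment, and its smallest adjusted p was 0.589. At an unadjusted p under 0.05 there were 1388 genes, 755 with a higher and 633 with a lower mean in LPS+TSLP. Without LPS+TSLP replicate 1 there were again 0 genes at the adjusted threshold (0% of 16997, smallest adjusted p 0.493). DESeq2's Wald test on the same counts called 22 genes higher and 13 lower. These 35 included 5 genes of the mitochondrial genome and 8 predicted genes with Gm names. No gene below is therefore described as changed by the main test, and group differences are given as values.

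A second measure was whether the groups overlapped at all. All 4 LPS+TSLP libraries lay above all 3 LPS libraries at 665 genes (3.88% of those tested) and below them at 607 genes (3.54%). Without LPS+TSLP replicate 1 these shares were 7.23% (1229 genes) and 6.32% (1075 genes). Without LPS replicate 1 they were 6.7% (1182 genes) and 6.05% (1068 genes), and without both 11.3% (1976 genes) and 8.97% (1568 genes). The counts also moved by more than 1.5 times without LPS replicate 2 (1428 above and 1248 below), LPS replicate 3 (1182 and 1371) and LPS+TSLP replicate 4 (1275 and 1118), and the count below did so without LPS+TSLP replicate 3 (1024). A smaller group overlaps less readily, so the lists below are read only against the share over all genes with the same libraries. The median log2 fold change over all tested genes was 0.02, and 47.8% of them lay below 0.

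The 48 gene lists, of pathways and cell types, held 1030 tested genes. Some genes belong to several lists, so counts of lists that share genes are not separate results. In order of their median log2 fold change from the lowest, the list of inflammatory cytokines and chemokines came at rank 1 with −1.03 and the neutrophil markers at rank 2 with −0.96. Interferon-stimulated genes followed at rank 5 (−0.55), MHC class I and immunoproteasome genes at rank 6 (−0.53), leukocyte adhesion molecules at rank 8 (−0.46) and NF-kB feedback and response genes at rank 9 (−0.43). The short adipocyte and erythroid lists, with 9 and 10 tested members, lay between at −0.82 and −0.66. Their medians were −0.06 without LPS replicate 3 and 0.07 without LPS replicate 1. At the other end stood the mitochondrially encoded mRNAs (1.70, rank 48), smooth muscle and pericyte markers (0.62, rank 46) and fibroblast and matrix genes (0.45, rank 44). Without LPS+TSLP replicate 1 the cytokines kept rank 1 at −0.91 and the neutrophil markers came at rank 3 with −0.87. Fibroblast and smooth muscle lists then stood at ranks 47 and 46. The lists at ranks 43, 45 and 47, of ciliated cells, of club and secretory cells and of heart, skeletal muscle and thymus, had medians of 0.36, 0.57 and 1.03 with that library and −0.35, −0.37 and −0.14 without it.

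**Figure D2:**
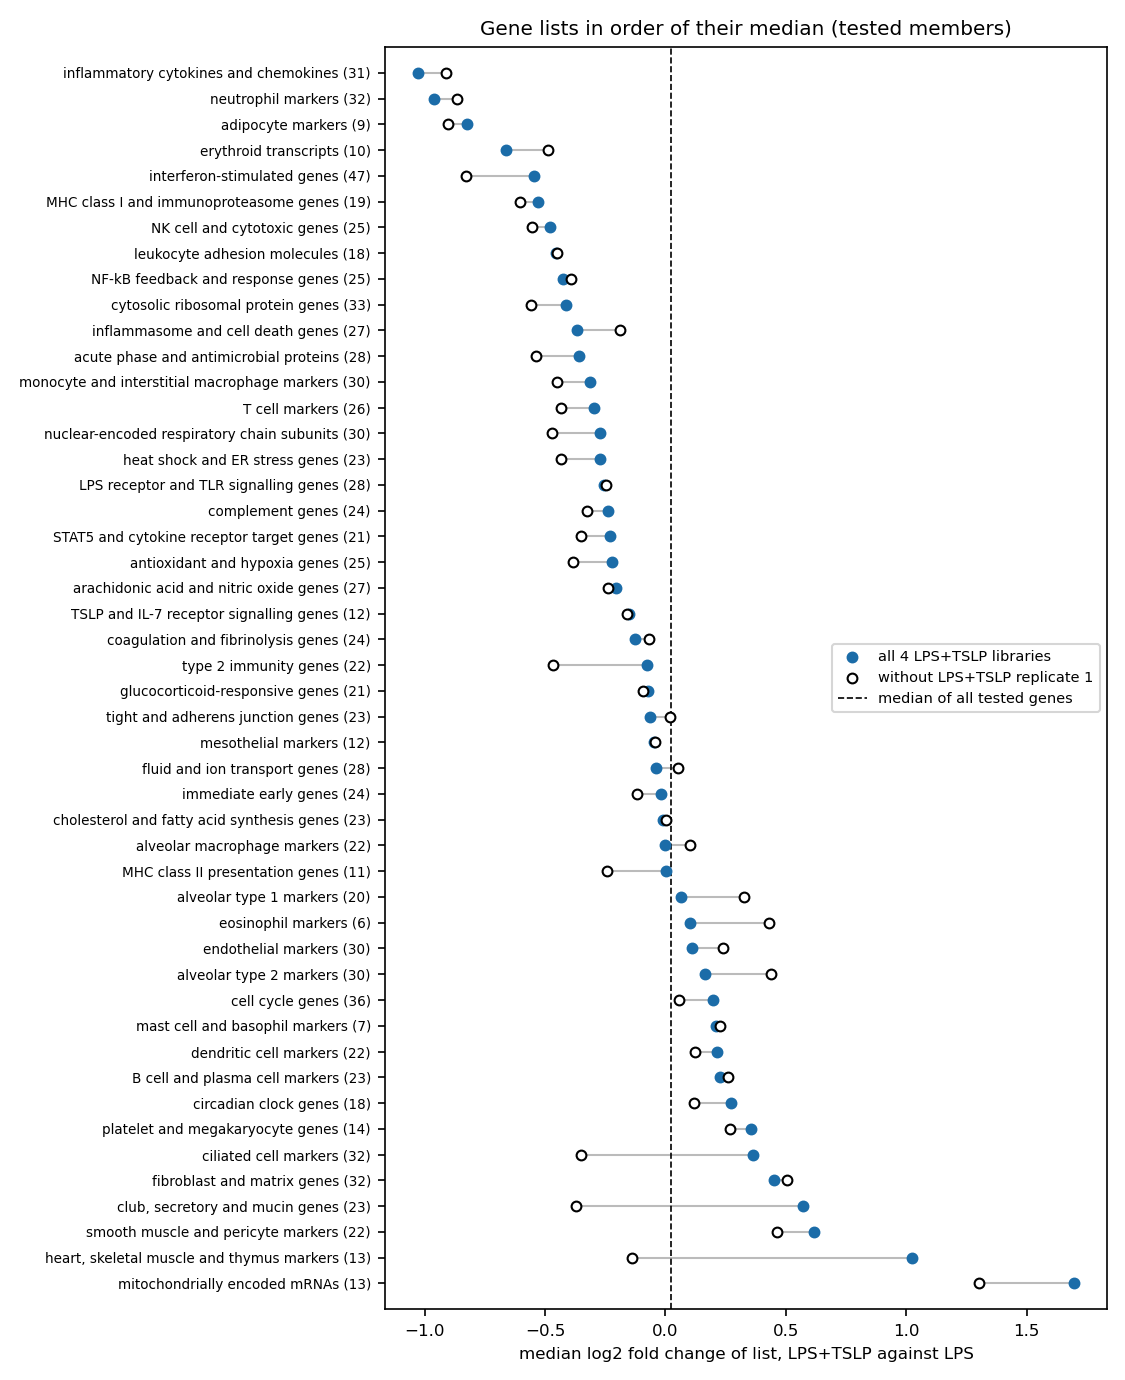
Median log2 fold change of LPS+TSLP against LPS over the tested members of each of the 48 lists, with the number of members in brackets. Filled points use all 4 LPS+TSLP libraries and open points leave out LPS+TSLP replicate 1, with the dashed line at the median of all genes (0.02). Cytokines and neutrophil markers stood lowest, and 3 lists near the bottom crossed to the other side of 0 without that library.

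**Figure D3:**
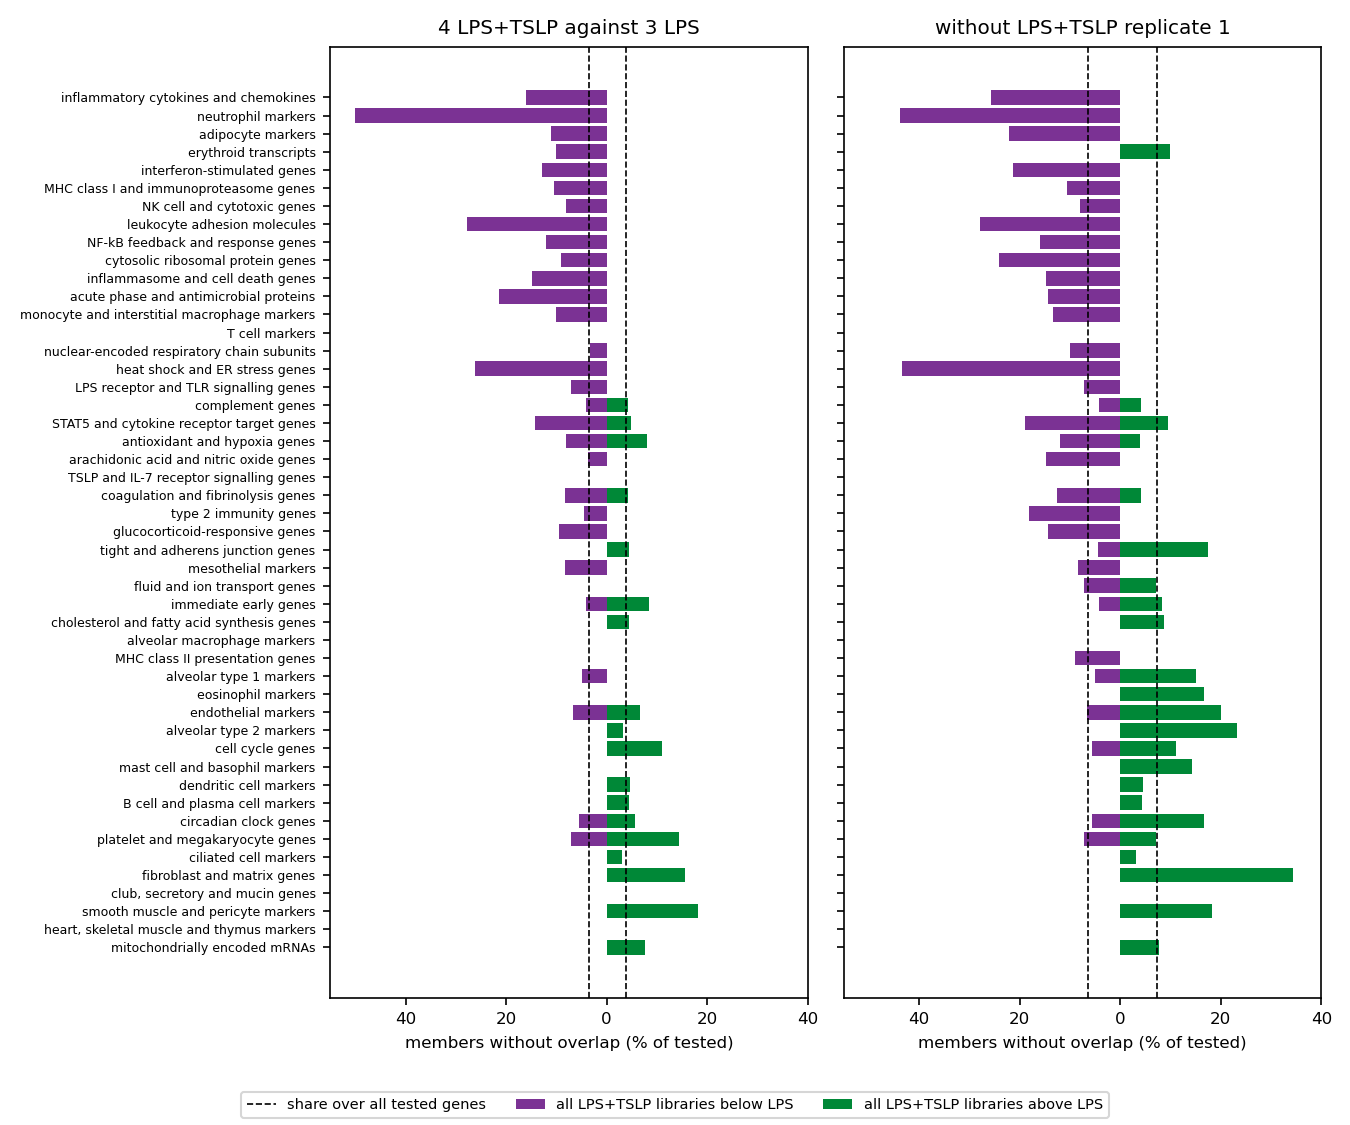
Percentage of each list's tested members whose LPS+TSLP libraries all lay below (left of 0) or all above (right of 0) the LPS libraries. Dashed lines mark the share over all tested genes, 3.54% below and 3.88% above with all libraries. The neutrophil bar reached 50%, and the fibroblast bar 15.6% with all libraries and 34.4% without LPS+TSLP replicate 1.

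Markers of neutrophils, the first leukocytes to enter the inflamed lung, had the largest share without overlap of the 48 lists. Of 32 tested markers 16 (50%) lay below LPS in every LPS+TSLP library and 0 above, against 3.54% and 3.88% over all genes. The count was 14 (43.8%) without LPS+TSLP replicate 1, 15 (46.9%) without LPS replicate 1 and 16 (50%) without both. The median was −0.87 without the first and −0.94 without the second. Summed over the list, the markers had 19100, 11540 and 12530 CPM in LPS and 3787, 9588, 9779 and 8863 CPM in LPS+TSLP. The sums did not overlap, and the Vehicle libraries had 1511 to 6397 CPM. A sum follows its most abundant members, and the list holds Lcn2, Slpi and Hp, which are also in the acute phase list. In whole lung, fewer neutrophils, less of these mRNAs per neutrophil and less of them from other cells cannot be told apart.

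Ly6g (chromosome 15, 75155240 to 75159126, GRCm38), the surface antigen used to count mouse neutrophils, had 7.80, 4.80 and 4.44 CPM in the LPS libraries in order of replicate and 0.896, 1.32, 2.67 and 2.26 CPM in LPS+TSLP replicates 1 to 4. The highest LPS+TSLP library lay below the lowest LPS library. The LPS+TSLP mean of 1.79 ± 0.819 CPM (SD, n = 4) lay within the Vehicle range of 1.35 to 2.19 CPM. LPS+TSLP replicates 1 and 2 lay below that range and replicates 3 and 4 above it. The log2 fold change was −1.66 (SE 0.41, adjusted p = 0.589 by edgeR) and −1.46 without LPS+TSLP replicate 1. S100a8, a subunit of the calcium-binding protein calprotectin of neutrophils, had 573, 482 and 608 CPM in LPS and 23.4, 280, 293 and 211 CPM in LPS+TSLP. LPS+TSLP replicate 1 was the lowest by far, and the other 3 also lay below every LPS library (log2 fold change −1.46, SE 0.62, adjusted p = 0.602; −1.10 without replicate 1).

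Wfdc21, a secreted protein gene of the whey acidic protein family, had the lowest log2 fold change of the marker list. It had 97.9, 45.1 and 73.3 CPM in LPS and 4.16, 23.7, 20.4 and 22.8 CPM in LPS+TSLP, with no overlap (log2 fold change −2.02, SE 0.48, adjusted p = 0.589). Mmp8, a collagenase stored in neutrophil granules, had 31.8, 59.0 and 60.1 CPM in LPS and 4.41, 19.3, 23.7 and 23.3 CPM in LPS+TSLP. Its groups did not overlap either, at a log2 fold change of −1.51 (SE 0.48) and −1.20 without LPS+TSLP replicate 1. The receptor gene Trem3 stood at −1.22 and the stefin genes Stfa2l1 and Gm5483, which encode cysteine protease inhibitors, at −1.76 and −1.95. Of the 50-base stretches of Stfa2l1 and Gm5483, 25.5% and 11.7% also occur in other genes, so counts could be split between copies.

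The list was not uniform, and 7 of the 32 markers had log2 fold changes above 0, namely Mpo, Elane, Ctsg, Prtn3, Camp, Ngp and Ltf. All 7 encode granule proteins that are made in neutrophil precursors, and all overlapped between the groups. Other granule genes of precursors lay on the opposite side, with Lcn2 at −0.91 and Mmp8 at −1.51, both without overlap. Ltf, the lactoferrin gene, went from 0.47 to −1.51 without replicate 1. Mpo, which encodes myeloperoxidase, had 0.670, 0.226 and 1.33 CPM in LPS and 0, 5.35, 3.11 and 0.671 CPM in LPS+TSLP. Ngp, the neutrophilic granule protein gene, had 11.9, 7.46 and 14 CPM in LPS and 1.15, 48.9, 22.5 and 7.57 CPM in LPS+TSLP. LPS+TSLP replicates 2 and 3 lay above every LPS library at both genes and replicate 1 below. The log2 fold changes were 1.61 (SE 1.06) for Mpo and 0.85 (SE 0.83) for Ngp, and without LPS+TSLP replicate 2 the latter was −0.09, that of Elane −0.03 and that of Camp −0.34.

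**Figure D4:**
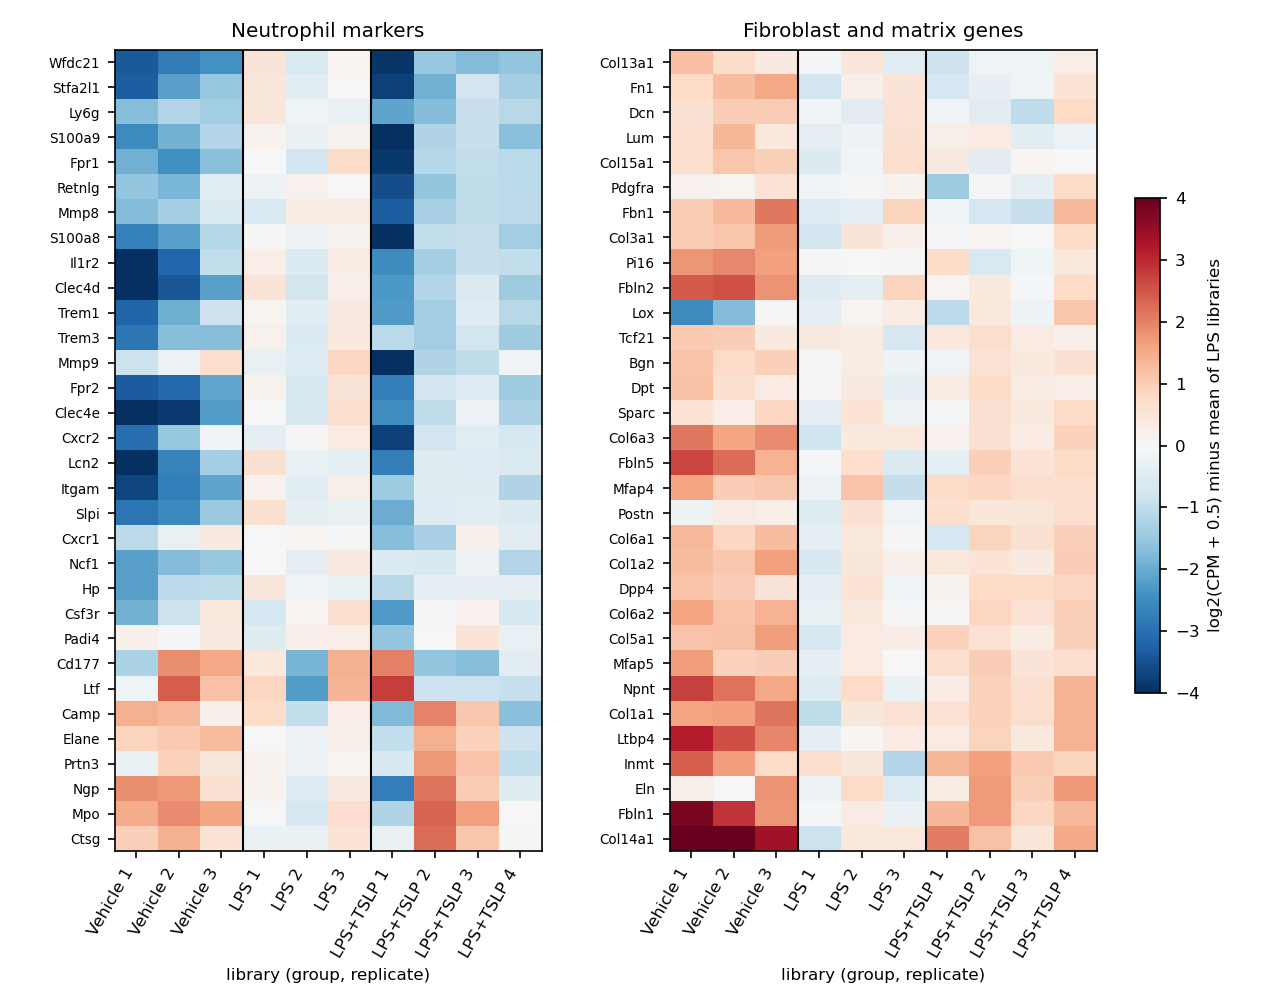
Log2(CPM + 0.5) of each tested neutrophil marker (left) and fibroblast or matrix gene (right) in the 10 libraries, minus the mean of the 3 LPS libraries, with genes ordered by log2 fold change. Blue is below and red above the LPS mean, and the scale ends at −4 and 4. Most neutrophil rows were blue in all 4 LPS+TSLP columns, whereas several granule genes at the bottom were red in LPS+TSLP replicates 2 and 3.

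Promoters of the neutrophil markers that did not overlap were searched for the motif of C/EBP factors, regulators of granulocyte genes, written TTGCNNAA on either strand. RefSeq promoters (GRCm38.p6) were searched over the 250 bases before each start. Promoters were matched for 13 of the 16 genes, and 6 of these genes (46.2%) held the motif, against 9.54% of the 12108 tested genes that matched. The motifs and the set were chosen after values were seen, and a match describes letters only. Markers that overlapped were not counted as a set, so the share does not bear on the difference between the groups. The stretches upstream of the start that hold the motif and lie outside annotated exons are shown for 5 of the 6 genes. They are shown for the motif and not for the size of the difference between the groups. Capitals mark the motif as read on the gene's strand.
Ly6g, chr15:75155011-75155239, plus strand: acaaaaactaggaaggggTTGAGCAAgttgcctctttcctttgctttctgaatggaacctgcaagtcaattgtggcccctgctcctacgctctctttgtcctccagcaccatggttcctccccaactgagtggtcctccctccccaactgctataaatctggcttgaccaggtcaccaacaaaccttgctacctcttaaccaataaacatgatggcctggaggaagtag
Mmp8, chr9:7558384-7558428, plus strand: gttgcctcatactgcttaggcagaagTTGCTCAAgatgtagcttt
Retnlg, chr16:48872358-48872395, plus strand: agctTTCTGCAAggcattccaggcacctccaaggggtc
S100a9, chr3:90695924-90695971, minus strand: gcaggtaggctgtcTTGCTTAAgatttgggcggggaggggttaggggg
Slpi, chr2:164356715-164356757, minus strand: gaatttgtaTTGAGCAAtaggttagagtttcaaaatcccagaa

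Retnlg, S100a9 and Slpi were chosen after their values were seen, because their promoters hold the motif. The same holds for list members named below that are neither among the 34 marker genes nor among those with the smallest p-values or largest differences. Retnlg, which encodes a resistin-like protein of granulocytes, had 87.9 to 116 CPM in LPS and 8.32 to 50.5 CPM in LPS+TSLP. S100a9, the partner subunit of S100a8, had 549 to 722 CPM in LPS and 31.9 to 349 CPM in LPS+TSLP. Slpi, a secreted inhibitor of neutrophil elastase that epithelial cells make as well, had 170 to 352 CPM in LPS and 56.0 to 168 CPM in LPS+TSLP, and its groups came within a few CPM of each other.

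All 31 tested inflammatory cytokines and chemokines had log2 fold changes below 0, against 47.8% of all genes. Of these, 5 (16.1%, against 3.54%) lay below LPS without overlap, namely Cxcl1, Cxcl3, Ccl2, Ccl12 and Il12b, and 0 lay above. The count was 8 (25.8%, against 6.32%) without LPS+TSLP replicate 1 and 7 (22.6%, against 6.05%) without LPS replicate 1. Averaged over the list, log2 CPM were 6.06, 5.29 and 5.84 in LPS and 4.08, 4.44, 5.44 and 4.30 in LPS+TSLP, so that LPS+TSLP replicate 3 lay above LPS replicate 2. The Vehicle libraries spread from 1.01 to 3.87. The list's median ranged from −1.41 without LPS+TSLP replicate 3 to −0.75 without LPS replicate 1, and it was −0.49 in limma-voom with quality weights.

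Cxcl1 (chromosome 5, 90891241 to 90893115) encodes a chemokine that draws neutrophils through Cxcr2. Its promoter is shown because the NF-kB consensus was searched on both strands in this list: 8 of 20 matched promoters held it (40%), against 5.58% of the matched tested genes. The NF-kB feedback list, whose members were chosen as NF-kB response genes, had 10 of 20 (50%). A match describes letters only, and these shares do not bear on the difference between LPS+TSLP and LPS. Capitals mark a pair of overlapping matches, 1 on each strand, the first of which starts 71 bases before the RefSeq start.
Cxcl1, chr5:90890995-90891240, plus strand: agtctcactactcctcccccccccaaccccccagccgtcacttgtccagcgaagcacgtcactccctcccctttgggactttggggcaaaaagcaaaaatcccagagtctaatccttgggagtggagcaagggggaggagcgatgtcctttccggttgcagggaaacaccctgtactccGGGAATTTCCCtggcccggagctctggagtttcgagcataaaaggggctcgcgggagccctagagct
Cxcl1 had 90.5, 82.9 and 88.5 CPM in LPS and 17.0, 35.1, 63.6 and 45.2 CPM in LPS+TSLP. The LPS libraries were close together and all LPS+TSLP libraries lay below them, with a spread among themselves wider than the gap between the groups. The log2 fold change was −1.12 (SE 0.70, adjusted p = 0.724 by edgeR; −0.88 without replicate 1).

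Ccl2, a chemokine for monocytes, had 155, 93.5 and 161 CPM in LPS and 72.7, 37.5, 70.2 and 35.5 CPM in LPS+TSLP, without overlap (log2 fold change −1.34, SE 0.71, adjusted p = 0.666; −1.53 without replicate 1). Its neighbour on chromosome 11, Ccl12, had means of 41.8 ± 12.3 (SD, n = 3) and 17.7 ± 6.28 CPM (n = 4) and also did not overlap. Il12b, the shared p40 subunit of interleukins 12 and 23, had 2.93, 2.82 and 5.28 CPM in LPS and 1.28, 1.27, 2.62 and 1.53 CPM in LPS+TSLP. Ccl20, a chemokine of epithelial cells for Ccr6-bearing lymphocytes, had the lowest log2 fold change of the list, −2.59 (SE 0.84; −2.28 without replicate 1 and −1.77 without LPS replicate 1). It had 331, 50.3 and 148 CPM in LPS and 5.44, 18.8, 42.1 and 50.9 CPM in LPS+TSLP, and a single pair of libraries kept its groups from separating. The growth factor gene Csf1 stood at −0.65 (SE 0.30; −0.43 without replicate 1).

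The other cytokines overlapped between the groups. Il1b, the pyrogenic interleukin-1 beta, had 536, 212 and 597 CPM in LPS and 91.8, 150, 330 and 131 CPM in LPS+TSLP. LPS+TSLP replicate 3 alone exceeded LPS replicate 2. Tnf had 104 ± 40.6 (n = 3) and 45.8 ± 25.6 CPM (n = 4), and Il6 24 ± 13.2 and 10.2 ± 7.81 CPM. Their log2 fold changes were −1.35, −1.18 and −1.23 with SEs of 0.63, 0.67 and 0.82, and −1.14, −0.99 and −1.07 without replicate 1. Without LPS replicate 1 they were −1.19, −0.99 and −0.71. Among further chemokine and growth factor genes, the neutrophil chemokine gene Cxcl2 stood at −1.31 (SE 1.09; −0.94 without replicate 1), the monocyte chemokine gene Ccl3 at −1.07 (SE 0.86; −0.72 without replicate 1), and Csf3, which encodes the granulocyte growth factor G-CSF, at −1.69 (SE 0.91; −1.41 without replicate 1). The same LPS+TSLP library, replicate 3, was the highest of its group at all 6 of these genes.

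Antagonists of inflammation did not stand higher. Il10, the anti-inflammatory interleukin, had 1.16, 0.960 and 1.44 CPM in LPS and 0.576, 0.345, 0.273 and 0.122 CPM in LPS+TSLP, without overlap (log2 fold change −1.84, SE 0.59, adjusted p = 0.589; −2.24 without replicate 1). These levels rest on 17 to 26 counts in LPS and 2 to 9 counts in LPS+TSLP. Il1rn, the interleukin-1 receptor antagonist, had 600, 362 and 785 CPM in LPS and 316, 272, 462 and 220 CPM in LPS+TSLP, and the groups overlapped (−0.87, SE 0.54; −0.88 without replicate 1).

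NF-kB feedback and response genes lay below 0 in 25 of 25 cases, from −1.08 to −0.07. Of these, 3 (12.0%, against 3.54% over all genes) lay below LPS without overlap, 4 (16%, against 6.32%) without LPS+TSLP replicate 1 and 6 (24%, against 6.05%) without LPS replicate 1. Sod2, the mitochondrial superoxide dismutase, had 934, 459 and 668 CPM in LPS and 256, 317, 416 and 351 CPM in LPS+TSLP, without overlap (−1.04, SE 0.32; −0.95 without replicate 1). Nfkbia, which encodes the inhibitor that ends NF-kB signalling, had 791, 491 and 682 CPM in LPS and 342, 377, 552 and 353 CPM in LPS+TSLP. LPS+TSLP replicate 3 overlapped LPS replicate 2, at a log2 fold change of −0.69 (SE 0.28; −0.63 without replicate 1).

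The list of LPS receptor and Toll-like receptor genes had a median of −0.25, which was −0.01 without LPS replicate 3. Of its 28 members 2 (7.14%, against 3.54%) lay below LPS without overlap. The count was again 2 (7.14%, near the 6.32% over all genes) without LPS+TSLP replicate 1. It was 5 (17.9%, against 6.05%) without LPS replicate 1. Cd14 had 722, 401 and 721 CPM in LPS and 139, 353, 508 and 346 CPM in LPS+TSLP (−0.87, SE 0.50; −0.63 without replicate 1), and its groups overlapped. Tlr4 had 20.4, 25.7 and 63.5 CPM in LPS and 19.8, 18.6, 23 and 32.8 CPM in LPS+TSLP. Its log2 fold change of −0.64 (SE 0.40) was 0.01 without LPS replicate 3. Arachidonic acid and nitric oxide genes had a median of −0.21 with 1 of 27 (3.7%) below LPS without overlap, near the 3.54% over all genes. In this list Nos2, the inducible nitric oxide synthase, had 59.3 ± 42.8 (n = 3) and 22.6 ± 13.1 CPM (n = 4) (−1.39, SE 0.55; −1.56 without replicate 1), and Ptgs2, the inducible cyclooxygenase, had 44.7 ± 22.8 and 21.0 ± 14.7 CPM (−1.09, SE 0.55; −0.78 without replicate 1). Both overlapped.

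Interferon-stimulated genes lay below 0 in 45 of 47 cases. Without overlap 6 (12.8%, against 3.54%) lay below LPS and 0 above, 10 (21.3%, against 6.32%) without LPS+TSLP replicate 1 and 8 (17.0%, against 6.05%) without LPS replicate 1. The list split the LPS+TSLP libraries. Its mean log2 CPM was 7.44, 7.46 and 7.28 in LPS, 7.39 and 7.38 in LPS+TSLP replicates 1 and 3, and 5.97 and 5.96 in replicates 2 and 4, which lay within the Vehicle range of 4.43 to 6.09. The median was −0.31 without LPS+TSLP replicate 2 and −0.83 without replicate 1. Cxcl10, an interferon-induced chemokine for T cells, followed the split with 735, 527 and 583 CPM in LPS and 654, 109, 750 and 73.6 CPM in LPS+TSLP (−0.63, SE 0.91; −0.98 without replicate 1).

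The members without overlap were Gbp7, Iigp1, Tgtp1, Tgtp2, Ifi47 and Ifi205. Gbp7, a guanylate-binding protein gene of a family that acts on vacuoles holding microbes, had 249, 276 and 385 CPM in LPS and 88.2, 114, 248 and 155 CPM in LPS+TSLP, so that the nearest libraries nearly met (−1.0, SE 0.37; −0.83 without replicate 1). Tgtp2 had 155, 165 and 165 CPM in LPS and 106, 52.5, 123 and 77.4 CPM in LPS+TSLP (−0.85, SE 0.31; −0.95 without replicate 1), and 84.2% of its 50-base stretches occur in other genes. Ifi47, an immunity-related GTPase gene, stood at −0.81 (SE 0.38; −0.93 without replicate 1). The other guanylate-binding protein genes of the list, Gbp2, Gbp3, Gbp4, Gbp5 and Gbp6, overlapped, at −1.17 to −0.61. MHC class I and immunoproteasome genes, which load and present peptides to CD8+ T cells, lay below 0 in 19 of 19 cases, with 2 (10.5%, against 3.54%) without overlap. Without LPS replicate 1 their median of −0.53 was −0.28 and the count 4 (21.1%, against 6.05%), and without LPS+TSLP replicate 1 the count was 2 again. Of these H2-K1 had 3691, 2421 and 2899 CPM in LPS and 2171, 1479, 2370 and 1704 CPM in LPS+TSLP (−0.64, SE 0.24; −0.72 without replicate 1).

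Leukocyte adhesion molecules, which slow and hold white cells at the vessel wall, lay below 0 in 17 of 18 cases. Without overlap 5 (27.8%, against 3.54%) lay below LPS. Of the 5, Itgam is also in the neutrophil list, Vcam1 in the NF-kB list, and Ackr1 and Selp in the endothelial list. The count was 5 (27.8%, against 6.32%) without LPS+TSLP replicate 1 and 7 of 19 (36.8%, against 6.05%) without LPS replicate 1. Selp, the P-selectin of platelets and endothelium, had 14.2, 14.7 and 48.8 CPM in LPS and 3.07, 5.30, 9.76 and 13.1 CPM in LPS+TSLP. Ackr1, the atypical chemokine receptor of venules, had 6.03, 2.43 and 8.05 CPM in LPS and 1.09, 0.921, 2.34 and 1.95 CPM in LPS+TSLP. Both were without overlap by a narrow gap, at log2 fold changes of −1.73 (SE 0.65; −1.49 without replicate 1) and −1.80 (SE 0.59; −1.68 without replicate 1). Cd44, the hyaluronan receptor, had 383, 297 and 451 CPM in LPS and 259, 258, 278 and 280 CPM in LPS+TSLP, and its 4 LPS+TSLP libraries lay close together (−0.49, SE 0.19; −0.49 without replicate 1). Sele, the E-selectin, had 9.02, 6.95 and 47.8 CPM in LPS and 0.896, 1.96, 8.23 and 6.47 CPM in LPS+TSLP and overlapped (−2.27, SE 0.86; −1.94 without replicate 1).

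Acute phase and antimicrobial genes had 6 of 28 members (21.4%, against 3.54%) below LPS without overlap. The count was 4 (14.3%, against 6.32%) without LPS+TSLP replicate 1 and 6 (21.4%, against 6.05%) without LPS replicate 1. With all libraries the 6 include Lcn2, Slpi and Hp, which were counted among the neutrophil markers too. Saa3, the lung-expressed serum amyloid A, had 15450, 7650 and 4289 CPM in LPS and 3084, 2745, 3516 and 2893 CPM in LPS+TSLP. The 4 LPS+TSLP libraries were close together and below every LPS library, whose own spread was wide (log2 fold change −1.58, SE 0.99, adjusted p = 0.725; −1.6 without LPS+TSLP replicate 1 and −0.95 without LPS replicate 1). The Vehicle libraries had 6.74 to 1186 CPM. Its promoter is shown beside those of the neutrophil genes because it also holds the C/EBP motif, marked in capitals.
Saa3, chr7:46715701-46715926, minus strand: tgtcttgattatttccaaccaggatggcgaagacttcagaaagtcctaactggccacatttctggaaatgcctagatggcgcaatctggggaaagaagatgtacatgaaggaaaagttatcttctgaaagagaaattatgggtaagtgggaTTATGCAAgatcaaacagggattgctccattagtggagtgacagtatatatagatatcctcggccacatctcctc
Ptx3, a long pentraxin that binds microbes, had 60.6, 57.2 and 35.1 CPM in LPS and 13.6, 7.88, 31.9 and 13.7 CPM in LPS+TSLP (−1.60, SE 0.74; −1.52 without replicate 1). Saa2 overlapped at −1.71 (SE 0.76; −1.67 without replicate 1), and 22.2% of its 50-base stretches are shared.

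Genes of inflammasomes and cell death had 4 of 27 members (14.8%, against 3.54%) below LPS without overlap. The count was again 4 without LPS+TSLP replicate 1 (against 6.32%) and without LPS replicate 1 (against 6.05%). Naip2, a sensor of bacterial secretion systems, had 24.9, 22.9 and 48.3 CPM in LPS and 17.7, 14.9, 22.6 and 17.8 CPM in LPS+TSLP (−0.81, SE 0.28; −0.81 without replicate 1). The gap was narrow, it closed without LPS+TSLP replicate 1, and 19.8% of its 50-base stretches are shared. Bak1, a mitochondrial apoptosis effector, stood at −0.62 (SE 0.25; −0.76 without replicate 1) without overlap. Gsdmd, the pore protein of pyroptosis, and Ninj1, which ruptures dying cells, overlapped at −0.49 (SE 0.21; −0.55 without replicate 1) and −0.79 (SE 0.33; −0.63 without replicate 1).

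Heat shock and endoplasmic reticulum stress genes had 6 of 23 members (26.1%, against 3.54%) below LPS without overlap and 10 (43.5%, against 6.32%) without LPS+TSLP replicate 1. The median was −0.27 with it and −0.43 without it. Without LPS replicate 1 the count was 6 again (against 6.05%). Hspa5, the main chaperone of the endoplasmic reticulum, had 973, 1063 and 1183 CPM in LPS and 564, 610, 687 and 795 CPM in LPS+TSLP. The gap between the groups was larger than the SD of either, 106 and 101 CPM (−0.69, SE 0.27, adjusted p = 0.589; −0.64 without replicate 1). Asns, the asparagine synthetase induced by the integrated stress response, had 42.6, 35.8 and 39.8 CPM in LPS and 13.4, 23.5, 21.2 and 32.0 CPM in LPS+TSLP (−0.81, SE 0.25; −0.65 without replicate 1). Sdf2l1, a chaperone cofactor, stood at −0.73 (SE 0.27; −0.79 without replicate 1) without overlap, and Ddit3, the stress factor CHOP, at −0.56 (SE 0.23; −0.47 without replicate 1) with overlap.

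**Figure D5:**
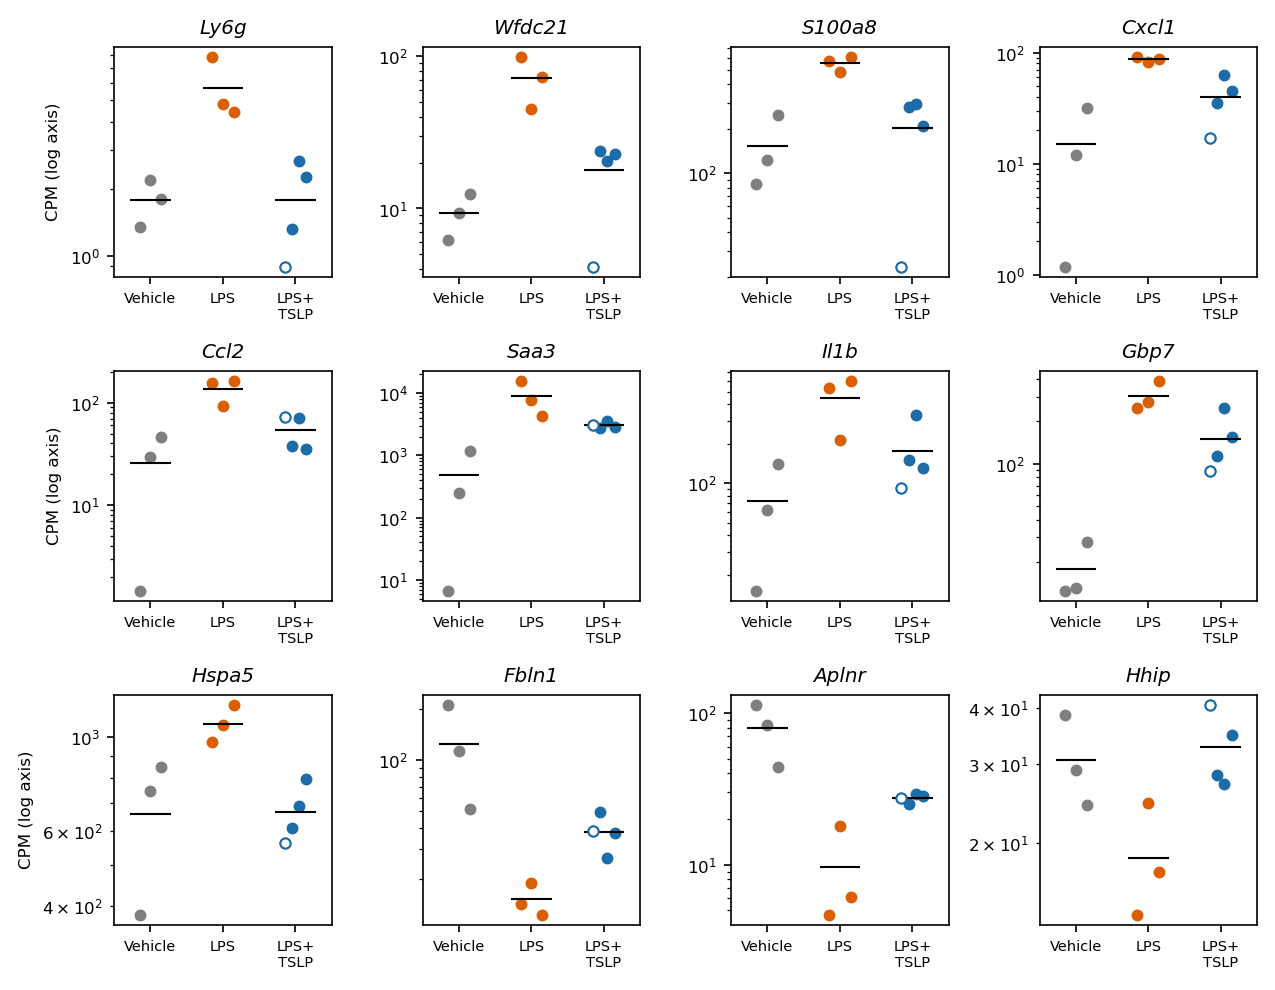
CPM of 12 genes in each library on a log axis, by group, with a line at each group's mean. The open circle is LPS+TSLP replicate 1. At Ly6g, Wfdc21, S100a8, Cxcl1, Ccl2, Saa3, Gbp7 and Hspa5 all LPS+TSLP points lay below the LPS points, at Fbln1, Aplnr and Hhip above, and at Il1b the groups overlapped.

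Genes of the pathway that TSLP engages showed small differences in RNA, and the activity of the pathway was not measured. Of the 12 genes of this list 0 were without overlap in either direction, against 3.54% below and 3.88% above over all genes. A list this short cannot tell 0 from those shares. The log2 fold changes of its members ran from −0.49 to 0.41. Tslp itself had 2.99, 2.82 and 0.611 CPM in LPS and 2.75, 4.78, 2.29 and 1.53 CPM in LPS+TSLP (0.41, SE 0.63; −0.04 without LPS replicate 3). RNA does not show the administered protein. Crlf2, the TSLP receptor chain, had 82.7, 71.4 and 89.4 CPM in LPS and 69.5, 68.8, 99.4 and 53.2 CPM in LPS+TSLP (−0.16, SE 0.22; −0.15 without replicate 1), and Il7r had 23.3 ± 2.75 (n = 3) and 16.9 ± 9.21 CPM (n = 4) (−0.47, SE 0.43; −0.21 without replicate 1).

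STAT5 and cytokine receptor target genes had a median of −0.23, with 3 of 21 (14.3%, against 3.54%) below LPS and 1 (4.76%, against 3.88%) above without overlap. Without LPS+TSLP replicate 1 the counts were 4 (19.0%, against 6.32%) and 2 (9.52%, against 7.23%), and without LPS replicate 1 they were 3 and 1 again. Cish, the target most used as a readout of STAT5, had 46.3, 57.8 and 54.0 CPM in LPS and 44.7, 64.1, 65.6 and 48.7 CPM in LPS+TSLP, with full overlap (0.08, SE 0.21; 0.16 without replicate 1). Socs2 had 93.4, 127 and 90.1 CPM in LPS and 64.9, 141, 132 and 139 CPM in LPS+TSLP. It was without overlap and higher only when LPS+TSLP replicate 1 was left out, with log2 fold changes of 0.20 (SE 0.27) with that library and 0.39 without it. Socs1 and Socs3, suppressors induced by interferons and interleukin-6, had means of 105 ± 43.7 and 353 ± 110 CPM in LPS (n = 3) and 88.1 ± 76.9 and 243 ± 64.7 CPM in LPS+TSLP (n = 4). Their log2 fold changes were −0.26 (SE 0.64; −0.99 without replicate 1) and −0.54 (SE 0.46; −0.45 without replicate 1). Pim1, a kinase gene induced by STAT factors, had 341, 219 and 299 CPM in LPS and 149, 154, 218 and 141 CPM in LPS+TSLP, without overlap by a narrow gap (−0.79, SE 0.30), and the groups overlapped without LPS+TSLP replicate 1 (−0.76).

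Type 2 immunity genes had 1 of 22 members (4.55%) below LPS without overlap, near the share over all genes, and 4 (18.2%, against 6.32%) without LPS+TSLP replicate 1. The median was −0.08 with it and −0.47 without it. With all libraries 12 of the 22 members lay below 0. The list held values on both sides, with Clca1 at 3.41, Muc5ac at 1.25 and Ptgdr2 at 1.035, all with overlap. The chemokines that TSLP-treated dendritic cells are known to make, Ccl17 and Ccl22, had 22.8 ± 12.3 and 38.8 ± 16.3 CPM in LPS (n = 3) and 14 ± 6.28 and 34.3 ± 10.9 CPM in LPS+TSLP (n = 4). Both overlapped, at −0.70 (SE 0.42; −0.51 without replicate 1) and −0.17 (SE 0.39; −0.03 without replicate 1), and the latter was 0.17 without LPS replicate 1. Chil3, the chitinase-like protein of alternatively activated macrophages, had 662, 483 and 954 CPM in LPS and 178, 570, 419 and 502 CPM in LPS+TSLP (−0.75, SE 0.36; −0.51 without replicate 1), with 27.0% of its 50-base stretches shared. Of the 7 mast cell and basophil markers tested 2 lay below 0, and the values ran from −0.55 (Mcpt4) to 1.72 (Prss34). Eosinophil and mast cell markers had 0 members without overlap among 6 and 7 tested, and T cell markers 0 among 26. The shares over all genes were 3.54% below and 3.88% above, and lists of these sizes cannot tell 0 from them.

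Markers of monocytes and interstitial macrophages had a median of −0.31 with 3 of 30 (10%, against 3.54%) below LPS without overlap, 4 (13.3%, against 6.32%) without LPS+TSLP replicate 1 and 6 (20%, against 6.05%) without LPS replicate 1. Of these Fcgr4, an activating antibody receptor of monocytes and neutrophils, had 88.3, 75.4 and 92.2 CPM in LPS and 59.1, 18.1, 54.2 and 19.3 CPM in LPS+TSLP (−1.18, SE 0.44; −1.49 without replicate 1). NK cell and cytotoxic genes had a median of −0.48, with 2 of 25 (8.0%) below LPS without overlap, against 3.54%, and 2 again without either library that stood apart. Their median was −0.86 without LPS+TSLP replicate 3 and −0.24 without replicate 4. Alveolar macrophage markers had a median of 0 to 2 decimals. Of these 0 of 22 were without overlap, against 3.54% below and 3.88% above over all genes, shares that a list of this size cannot tell from 0.

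Fibroblast and matrix genes stood at the upper end. Of 32 members 26 had log2 fold changes above 0, and 5 (15.6%, against 3.88% over all genes) lay above LPS without overlap, with 0 below. The count was 11 (34.4%, against 7.23%) without LPS+TSLP replicate 1 and 6 (18.8%, against 6.7%) without LPS replicate 1. Summed CPM were 6560, 11230 and 8193 in LPS and 8925, 13150, 10670 and 15480 in LPS+TSLP, so the sums overlapped, and the Vehicle libraries had 16080 to 19870. Fbln1, which encodes the matrix glycoprotein fibulin-1, had 14.3, 18.8 and 12.3 CPM in LPS and 38.4, 49.2, 26.7 and 37.3 CPM in LPS+TSLP. All 4 lay above LPS and below the Vehicle range of 51.7 to 210 CPM (log2 fold change 1.32, SE 0.40, adjusted p = 0.589; 1.30 without replicate 1).

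Col14a1, a collagen of adventitial fibroblasts, had 2.01, 5.59 and 5.61 CPM in LPS and 18.3, 9.67, 5.89 and 12.5 CPM in LPS+TSLP, with LPS+TSLP replicate 3 just above LPS (1.39, SE 0.47; 1.06 without replicate 1). Mfap5, a microfibril protein gene, had 17.0, 26.7 and 21.1 CPM in LPS and 34.4, 42.2, 30.5 and 34.5 CPM in LPS+TSLP (0.71, SE 0.24; 0.71 without replicate 1). Col6a2 had 126, 206 and 148 CPM in LPS and 163, 284, 235 and 302 CPM in LPS+TSLP. LPS+TSLP replicate 1 overlapped and the other 3 did not (0.62, SE 0.26; 0.75 without replicate 1).

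Smooth muscle and pericyte markers lay above 0 in 21 of 22 cases, and 4 (18.2%) lay above LPS without overlap with all libraries (against 3.88%), without LPS+TSLP replicate 1 (7.23%), without LPS replicate 1 (6.7%) and without both (11.3%). The 1 member below 0 had −0.18. Hhip, which encodes a decoy receptor for hedgehog ligands, had 13.9, 24.6 and 17.3 CPM in LPS and 40.6, 28.4, 27.2 and 34.9 CPM in LPS+TSLP, with replicates 2 to 4 in the Vehicle range of 24.4 to 38.5 CPM (0.82, SE 0.25; 0.68 without replicate 1). Cspg4, the pericyte proteoglycan NG2, had 31.6, 40.7 and 38.8 CPM in LPS and 53.2, 50.7, 44.4 and 77.4 CPM in LPS+TSLP (0.61, SE 0.23; 0.61 without replicate 1). Myh11, the smooth muscle myosin, and Notch3, a receptor of mural cells, overlapped at 0.92 (SE 0.31; 0.70 without replicate 1) and 0.78 (SE 0.31; 0.69 without replicate 1).

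Endothelial markers held members at both ends. With all libraries 2 of 30 (6.67%, against 3.88%) lay above and 2 (6.67%, against 3.54%) below LPS without overlap. Without LPS+TSLP replicate 1 the counts were 6 (20%, against 7.23%) and 2 (6.67%, against 6.32%). In a list of 30, a count of 2 is close to the share over all genes. Aplnr, the apelin receptor of capillary cells, had 4.69, 18 and 6.11 CPM in LPS and 27.4, 25.2, 29.2 and 28.4 CPM in LPS+TSLP. The 4 LPS+TSLP libraries were within a few CPM of each other, above LPS and below the Vehicle range of 43.8 to 112 CPM (1.52, SE 0.44, adjusted p = 0.589; 1.5 without replicate 1). Sox18, a transcription factor of vessel development, had 92.1, 98.4 and 97.6 CPM in LPS and 173, 245, 124 and 136 CPM in LPS+TSLP (0.82, SE 0.24; 0.80 without replicate 1). The members below were the adhesion genes Ackr1 and Selp. Pecam1, the endothelial junction molecule CD31, had 889, 750 and 944 CPM in LPS and 541, 522, 605 and 855 CPM in LPS+TSLP (−0.45, SE 0.22; −0.41 without replicate 1), with LPS+TSLP replicate 4 among the LPS libraries. Angpt2, a destabiliser of vessels, had 29.2 ± 11.7 (n = 3) and 20.9 ± 7.27 CPM (n = 4) (−0.48, SE 0.30; −0.73 without replicate 1).

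The alveolar epithelium depended on LPS+TSLP replicate 1. Alveolar type 2 markers had 1 of 30 (3.33%, near the 3.88% over all genes) above LPS without overlap, and 7 (23.3%, against 7.23%) without that library. Without LPS replicate 1 the count was 2 (6.67%, near the 6.7% over all genes). Their mean log2 CPM was 7.58, 7.97 and 7.35 in LPS, 6.49 in LPS+TSLP replicate 1 and 8.25, 7.96 and 8.17 in replicates 2 to 4. Nkx2-1, the lung lineage transcription factor, had 135, 144 and 104 CPM in LPS and 111, 280, 181 and 200 CPM in LPS+TSLP (0.60, SE 0.29; 0.77 without replicate 1). Lgi3, a secreted protein gene of type 2 cells, had 38.6, 74.3 and 28 CPM in LPS and 37.9, 118, 77.4 and 105 CPM in LPS+TSLP. At both genes replicates 2 to 4 lay above every LPS library and replicate 1 did not.

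Ppp1r14c, a phosphatase inhibitor gene, was the type 2 marker without overlap in all libraries, with 30.4, 37.7 and 26.9 CPM in LPS and 55.9, 58.2, 41.9 and 62.8 CPM in LPS+TSLP (0.79, SE 0.21; 0.75 without replicate 1). Acoxl, an acyl-CoA oxidase-like gene, overlapped at 0.90 (SE 0.44; 1.06 without replicate 1). Sftpc had 3282, 5973 and 1282 CPM in LPS and 1755, 13410, 7244 and 5961 CPM in LPS+TSLP, and its groups overlapped (1.01, SE 0.63; 1.32 without LPS+TSLP replicate 1). Ager, the receptor abundant on alveolar type 1 cells, had 2044 ± 1018 (n = 3) and 1554 ± 905 CPM (n = 4) and stood at 316 CPM in LPS+TSLP replicate 1 (−0.40, SE 0.55; −0.08 without replicate 1).

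Summed over the 13 tested markers of heart, skeletal muscle and thymus, which can be cut away with the lung, LPS libraries had 53.8 to 247 CPM, LPS+TSLP replicate 1 had 647 CPM and the other 3 LPS+TSLP libraries 72.5 to 201 CPM. None of the markers in this list was at 0 counts in all 7 libraries. For the 32 ciliated cell markers the sums were 1503 to 1951 CPM in LPS, 2577 CPM in that library and 1291 to 2031 CPM in the others. For the 23 club and secretory markers they were 11510 to 29740, 32910 and 12650 to 16130 CPM. Scgb1a1 had 15520 ± 9499 (n = 3) and 14170 ± 4231 CPM (n = 4) (−0.13, SE 0.40; −0.36 without replicate 1), and this value was 0.51 without LPS replicate 1. The part of these tissues in the gene differences was not tested.

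All 13 mitochondrially encoded mRNAs had log2 fold changes above 0, from 0.82 to 4.17, and an unadjusted p under 0.05. The groups overlapped at 12 of them, and 1 (7.69%, against 3.88% over all genes) lay above LPS without overlap. mt-Nd4l, a subunit of respiratory complex I, had 2.07, 5.31 and 7.39 CPM in LPS and 41.3, 51.7, 24.3 and 12.3 CPM in LPS+TSLP, without overlap (2.71, SE 0.57, adjusted p = 0.589; 2.58 without replicate 1). mt-Co2, a subunit of cytochrome c oxidase, had 36.0, 29.3 and 54.8 CPM in LPS and 432, 200, 189 and 50.3 CPM in LPS+TSLP, with LPS+TSLP replicate 4 within the LPS range (2.44, SE 0.55; 1.87 without replicate 1). All 50-base stretches of both genes (100%) occur elsewhere in the annotation. Nuclear-encoded subunits of the respiratory chain lay below 0 in 29 of 30 cases (median −0.27; −0.05 without LPS replicate 1). Of these 1 (3.33%, near the 3.54% over all genes) lay below LPS without overlap.

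Among protein-coding genes with a mean of at least 5 CPM in the higher group, those with the smallest unadjusted p for a higher level in LPS+TSLP were Fam171a2, Htra3, mt-Nd4l, Dmpk, Pdk2, 2310022B05Rik, Cnrip1 and mt-Co2. Fam171a2 had 5.55, 7.34 and 4.55 CPM in LPS and 12.2, 16.7, 12.2 and 13 CPM in LPS+TSLP (1.22, SE 0.24, adjusted p = 0.589; 1.24 without replicate 1). Htra3, a secreted serine protease gene, had 11.6, 13.4 and 8.78 CPM in LPS and 24.3, 29.0, 22.6 and 23.4 CPM in LPS+TSLP (1.14, SE 0.24; 1.13 without replicate 1). Pdk2, a kinase that restrains pyruvate dehydrogenase, had 13.5, 17.5 and 13.3 CPM in LPS and 28.4, 32.9, 33.1 and 29.8 CPM in LPS+TSLP (1.07, SE 0.24; 1.10 without replicate 1). At these 3 genes each group was compact and the gap exceeded the SD of either group. The LPS+TSLP levels lay below the Vehicle range at Fam171a2, apart from replicate 2, and within or near it at the other 2.

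Dmpk, a protein kinase gene of muscle, had 33.0 ± 7.83 (n = 3) and 63.6 ± 10.9 CPM (n = 4) at a log2 fold change of 0.95 (SE 0.21; 0.95 without replicate 1). 2310022B05Rik had 67.1 ± 4.69 and 116 ± 17.1 CPM (0.78, SE 0.18; 0.81 without replicate 1), and Cnrip1, which encodes a protein that binds the cannabinoid receptor CB1, had 4.34 ± 0.905 and 10.1 ± 2.33 CPM (1.22, SE 0.28; 1.15 without replicate 1). All 3 were without overlap. By size of change among genes of the same kind without overlap, the highest after mt-Nd4l were Crocc2 (2.17, SE 0.55; 1.45 without replicate 1), Kcnk2 (1.93, SE 0.47; 1.27 without replicate 1), Efcc1 (1.87, SE 0.59; 1.26 without replicate 1), Colq (1.77, SE 0.63; 1.22 without replicate 1) and Adrb3 (1.60, SE 0.45; 1.60 without replicate 1). LPS+TSLP replicate 1 was the highest library at the first 4 of these. Below 5 CPM, Mcidas, a ciliated cell regulator gene, and Cd209d, a dendritic cell lectin gene, had larger values (3.31 and 2.90). Crocc2, a gene for a ciliary rootlet protein, had 19.1 CPM there against 5.07 to 5.99 CPM in the other LPS+TSLP libraries. Adrb3, the beta-3 adrenergic receptor, had 2.80, 1.24 and 1.33 CPM in LPS and 5.31, 6.39, 5.62 and 4.45 CPM in LPS+TSLP.

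In the other direction the smallest p-values belonged to Tnfrsf14, Sec61g, 2410015M20Rik, Rps29, Hnrnpa1, Atp5k, Gm11808 and Bst1. Tnfrsf14, the receptor HVEM for the cytokine LIGHT, had 32.8, 25.6 and 21.1 CPM in LPS and 10.4, 3.97, 10.4 and 7.99 CPM in LPS+TSLP, without overlap (−1.69, SE 0.31, adjusted p = 0.589; −1.85 without replicate 1). Bst1, the ADP-ribosyl cyclase CD157 of myeloid and stromal cells, had 141, 73.3 and 167 CPM in LPS and 32.6, 49.7, 60 and 54.8 CPM in LPS+TSLP (−1.37, SE 0.31; −1.23 without replicate 1).

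Sec61g, a subunit of the protein translocation channel, had 151, 91.9 and 69.5 CPM in LPS and 49.8, 36.1, 41.0 and 41.7 CPM in LPS+TSLP (−1.31, SE 0.24; −1.42 without replicate 1). Rps29, a ribosomal protein gene, had 792, 495 and 327 CPM in LPS and 219, 182, 222 and 140 CPM in LPS+TSLP (−1.50, SE 0.34; −1.59 without replicate 1). Atp5k and 2410015M20Rik, genes of mitochondrial membrane proteins, stood at −1.24 (SE 0.28; −1.32 without replicate 1) and −1.04 (SE 0.23; −1.06 without replicate 1), and Hnrnpa1, an RNA-binding protein gene, at −0.78 (SE 0.18; −0.79 without replicate 1). All 5 were without overlap, and LPS replicate 1 was the highest library at each. Without it the values were −0.92, −1.09, −0.85, −0.68 and −0.63. Shares of 35.6%, 31.6% and 36.5% of the 50-base stretches of Sec61g, Rps29 and Hnrnpa1 occur in other genes.

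Gm11808 had 95.6, 85.9 and 13.4 CPM in LPS and 15.8, 13.4, 15.3 and 17.3 CPM in LPS+TSLP (−2.07, SE 0.47; −2.11 without replicate 1). LPS replicate 3 lay among the LPS+TSLP libraries, and 94.7% of the gene's 50-base stretches are shared. Without LPS replicate 3 it was the 1 gene that edgeR called (−2.57, adjusted p = 0.000641). The list of cytosolic ribosomal protein genes lay below 0 in 33 of 33 cases, from −0.67 to −0.20, and LPS replicate 1 was again its highest library, at a mean log2 CPM of 9.84 against 9.18 and 8.94 in LPS and 8.59 to 9.22 in LPS+TSLP. Its median of −0.41 was −0.04 without that library. Of the 16 genes with the smallest p-values DESeq2 called 15, all but Atp5k. Among genes without overlap, Rasl10b, a small GTPase gene, had 41.7, 38.2 and 26 CPM in LPS and 3.39, 11.3, 9.98 and 17.8 CPM in LPS+TSLP (−1.73, SE 0.59; −1.47 without replicate 1).

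Of the 34 marker genes of LPS, TSLP and lung cell types, all given above, 29 lay below 0 and 5 above. Those below LPS without overlap were the 6 genes Cxcl1, Ccl2, Il10, S100a8, Ly6g and Saa3, and 0 lay above. The shares over all genes were 3.54% below and 3.88% above.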

How the data were processed

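RNA-seq libraries of whole mouse lung were deposited by the authors as 1 table of raw whole-number counts per gene. Per the submitters' processing notes, CASAVA, HISAT2, HTSeq 0.6.0 and the genome GRCm38 (mm10) were used. Annotation release, strand setting and handling of multi-mapping reads are not given in the sources used here. No row was without a gene.

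Groups were taken from the labels. All 10 libraries entered 1 edgeR fit (R 4.3.3, edgeR 4.0.16, filterByExpr, TMM scaling, robust quasi-likelihood test, 7 residual degrees of freedom, Benjamini-Hochberg adjustment over all tested genes, threshold 0.05, two-sided), and adjusted p-values are edgeR's unless another tool is named. The contrast was LPS+TSLP minus LPS. SE is that of the log2 fold change, and CPM used TMM library sizes (log2 CPM with a prior count of 2). A gene was without overlap where every LPS+TSLP library lay on the same side of every LPS library. Totals of 16175172 to 18062922 counts make counting error small except at low CPM. No pair of replicates agreed within sampling noise (chi-square at least 33 per degree of freedom). Same-numbered LPS and LPS+TSLP libraries had correlations of 0.32, 0.40 and −0.10, so numbers were not taken to pair samples.

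Named genes are, among protein-coding genes with a mean of at least 5 CPM in the higher group, the 8 higher and 8 lower with the smallest p, the 6 highest and 6 lowest log2 fold changes without overlap, 34 marker genes, and up to 4 genes per list with the smallest p. Further genes were chosen after their values were seen. The members and the 48 lists were chosen with earlier results of these data known, so no list has a p. For shared sequence, each gene's exons were read as 50-base stretches and those also found in another gene were counted. Promoters are from RefSeq (GRCm38.p6). Alternatives were other scalings and filters, DESeq2 1.42.0, limma 3.58.1 (voom, with and without quality weights), a replicate block, removal of GC and length trends (loess span 0.3), removal of abundant gene classes, and leaving out libraries.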

Additional observations from a re-analysis of the deposited data

Results flagged for a closer look

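Within the 4 LPS+TSLP libraries, the highest or lowest value was checked for its distance from the others, relative to their range (Dixon's 95% critical value 0.829). The values checked included the list means and the named genes. Of 160 values checked 9 (5.62%) stood apart, and chance gives about 1 in 20. These were 3 lists and 6 genes, and 4 of the 9 were in replicate 1. The mean log2 CPM of B cell and plasma cell markers was 4.87 in replicate 3 and 4.14 to 4.25 in the others. Alveolar type 2 markers had 6.49 in replicate 1 and 7.96 to 8.25 in the others, and tight and adherens junction genes had 6.49 in replicate 4 and 6.13 to 6.18 in the others.

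In replicate 1, Crocc2 had 19.1 CPM (5.07 to 5.99 in the others), Wfdc21 had 4.16 CPM (20.4 to 23.7) and Socs2 had 64.9 CPM (132 to 141). In replicate 3, Nfkbia had 552 CPM (342 to 377) and Pim1 had 218 CPM (141 to 154). Cnrip1 had 6.65 CPM in replicate 4 and 10.9 to 11.7 CPM in the others.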

How the results depend on the processing

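The count of called genes was 0 in each direction with edgeR under both thresholds (0.05 and 0.1), and with limma-voom (1302 genes at an unadjusted p under 0.05). DESeq2's Wald test called 22 higher and 13 lower. Leaving out 1 library, or LPS+TSLP replicate 1 and LPS replicate 1 together, gave 0 to 1 called lower, the 1 gene being Gm11808 without LPS replicate 3. Genes without overlap ranged over the same settings from 651 to 1976 higher and from 620 to 1568 lower. Without LPS+TSLP replicate 1 and with the GC trend removed, a setting chosen after seeing the data, they were 1113 and 1125. Smaller groups overlap less readily by construction. Upper quartile scaling gave 802 higher and 450 lower (665 and 607 with TMM), and 933 and 459 genes at an unadjusted p under 0.05 (755 and 633), with the median of all genes at 0.07.

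The replicate number as a block gave 0 called genes (1707 at an unadjusted p under 0.05 against 1388) and changed no call. LPS replicates 1 and 2 correlated best with their own number (0.32 and 0.40) and LPS replicate 3 with LPS+TSLP replicate 4 (0.22), so the numbers were not shown to pair the samples. The block turned the alveolar type 2 median from 0.17 to −0.11 and that of type 1 markers from 0.06 to −0.20, and moved the medians of neutrophil markers (−1.33), coagulation (−0.44) and cholesterol synthesis genes (−0.33).

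Under 26 other settings 17 of 48 list medians and 11 of 104 named genes changed sign at least once, and the cause was not tested. With libraries left out, log2 fold changes ranged from −0.044 to 0.74 for Tslp, −0.00528 to 0.16 for Cish, −0.99 to 0.10 for Socs1, −0.47 to 0.32 for Ccl22, −0.92 to 0.0118 for Tlr4, −0.76 to 0.33 for Ager, −0.44 to 0.51 for Scgb1a1, −0.0306 to 1.25 for Elane, −0.0918 to 1.29 for Ngp and −0.34 to 1.46 for Camp. With limma-voom Elane had −0.65, Ngp −0.0547 and Camp −0.22, and with quality weights Crlf2 had 0.10, Ccl22 0.18 and Scgb1a1 0.12. Scgb1a1 had 0.13 with the block, 0.0713 with the length trend removed and 0.13 with the GC trend removed and the block. The mitochondrial list has no value where those genes are left out. Il10 and Mpo rest on few counts per library.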
